A study of Mus musculus with 4 samples.

Results

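The ligand Gdnf, its receptor genes Ret and Gfra1, and 6 further genes of ureteric bud branching (Wnt11, Etv4, Etv5, Spry1, Sox9 and Fgfr2) were followed in control embryonic mouse kidneys and in kidneys with Hnf4a deleted in the nephron lineage. The 9 genes were chosen by name, and all 9 were found, with 1 row each, among 22662 named genes shared by the 4 deposited tables. RNA was sequenced from whole kidneys at E18.5, late in gestation, of mixed strain, with 2 libraries per group. Control kidneys carried Hnf4a c/+ ; Six2GFPcre, that is 1 conditional (c) allele, and mutant kidneys carried Hnf4a c/c ; Six2GFPcre, with 2 conditional alleles. Both groups thus carried the Cre, a fusion with GFP driven from Six2 sequences in nephron progenitors, so the controls could also lose 1 copy of Hnf4a in these cells. The labels do not say whether the libraries of a group came from separate animals, so each p-value measures the spread between these libraries only.

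Branching of the ureteric bud is driven by a signal between tissues. Cap mesenchyme cells around the bud secrete Gdnf, which binds the co-receptor Gfra1 and activates the receptor tyrosine kinase Ret at the bud tip. Ret signalling induces the transcription factors Etv4 and Etv5 and the secreted factor Wnt11, which in turn sustains Gdnf in the mesenchyme, while Spry1 damps the signal. Six2-expressing cap cells, in which this Cre acts, give rise to the nephrons and not to the ureteric tip. Etv4, Etv5, Spry1, Sox9 and Fgfr2 are also expressed outside the tip, so their level in a whole kidney is a sum over several cell types. Whole-kidney RNA cannot tell apart fewer cells of a type and less RNA per cell.

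Levels are given as FPKM, fragment counts scaled by transcript length and by sequencing yield, so they can be set side by side between genes. Differences are on the log2(FPKM + 1) scale, mutant minus control. Hnf4a itself stood at 89.3 and 84.6 FPKM in control replicates 1 and 2 and at 87.1 and 78.5 in mutant replicates 1 and 2. This whole-gene value does not check the genotype, since the sources used here do not say which part of the gene was removed. Between 13085 and 13183 of the 22662 genes reached an FPKM of 1 in a library, and the tables hold no fragment totals. Replicate 1 of each group carried the Y-linked Ddx3y (27.7 and 26.4 FPKM) and replicate 2 carried Xist (81.0 and 74.0 FPKM), so replicate numbers also separate these sex-linked patterns. Vil1 and Lrp2 are genes of the proximal tubule, the segment in which Hnf4a is known to act. In these whole kidneys Vil1 stood at 24.6% of the control mean (log2 change -1.87, SE 0.12, adjusted p = 0.036 by limma). Lrp2 stood at 33.8% (log2 change -1.51, SE 0.11, adjusted p = 0.050 by limma). That adjusted p of Lrp2 was just above the threshold in the design used here and under it in 5 of 13 alternatives. The call of Vil1 was lost with any library left out, with the replicate block, without the filter and without the variance trend.

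None of the 9 genes passed the test. All 9 were among the 13287 genes tested with limma, and 0 had an adjusted p under 0.05, against 0.158% of all tested genes (0.0452% higher and 0.113% lower in the mutant). At an unadjusted p under 0.05 the count was also 0, against 7.24% of tested genes. Their differences ranged from -0.38 (Sox9) to 0.20 (Gdnf), 6 of them negative and 3 positive (55.3% of all tested genes were positive), with a median of -0.02 against 0.02 over all tested genes. The median size of the difference, without its sign, was 0.06 for the 9 genes and 0.12 for all tested genes, which were not matched to the 9 by level. The 95% intervals of all 9 lay inside a 2-fold change of FPKM + 1, the outermost bounds being ratios of 0.560 (Sox9) and 1.52 (Gdnf) in FPKM + 1, mutant over control. Changes as large as that of Vil1 or Lrp2 were therefore outside the interval of each of the 9 genes, whereas even for Gfra1, the gene with the narrowest interval, a rise of up to 1.16-fold in FPKM + 1 lay inside it.

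**Figure D1:**
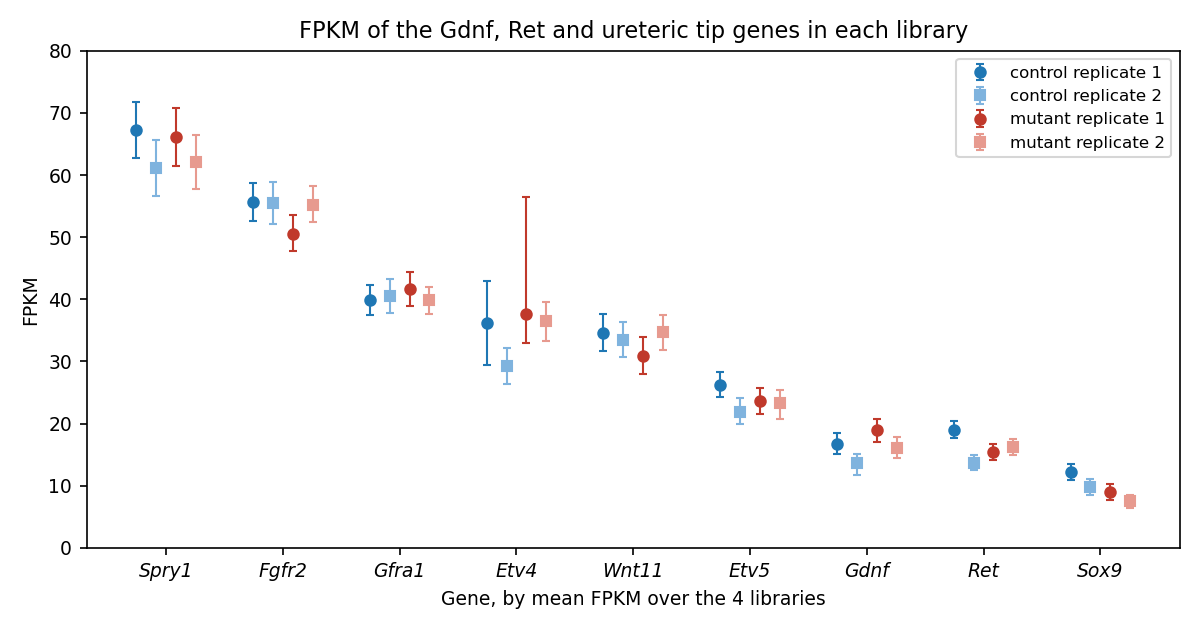
FPKM of the 9 genes in each of the 4 libraries, ordered by their mean; points are the deposited values and bars the interval that the authors' software gave for each. Control (blue) and mutant (red) libraries intermingle in most genes, and Sox9, at 12.2 and 9.86 FPKM in control against 8.92 and 7.49 in mutant libraries, is the lowest gene of the set.

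**Figure D2:**
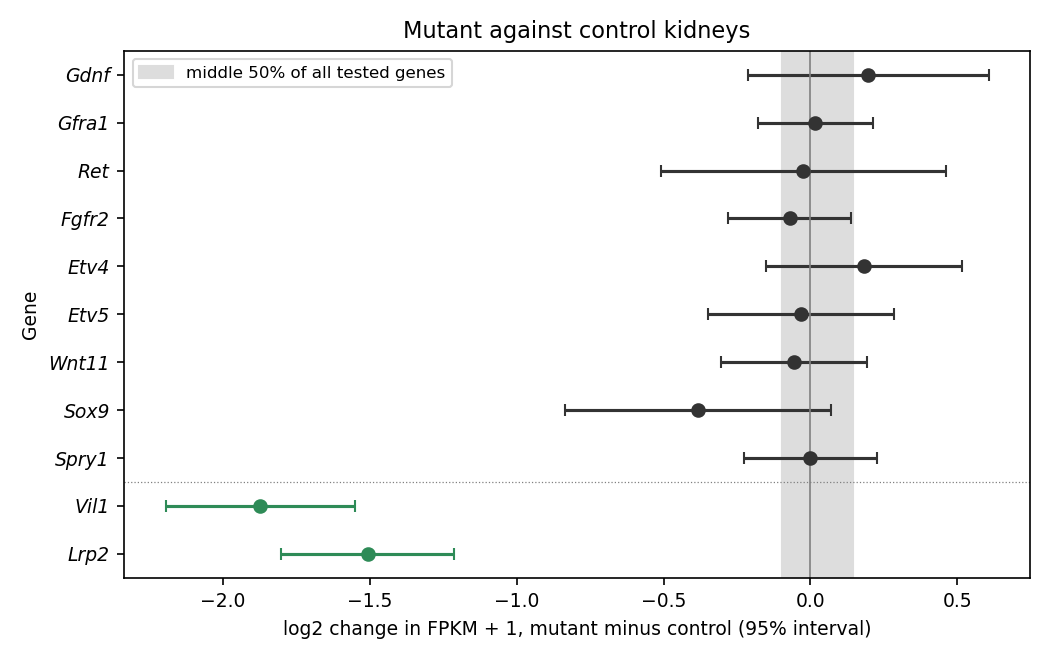
Log2 change in FPKM + 1, mutant minus control, with the 95% interval from limma for the 9 genes (black) and for 2 proximal tubule genes (green); the grey band holds the middle 50% of all 13287 tested genes. The intervals of all 9 genes include 0, while those of Vil1 (-2.20 to -1.55) and Lrp2 (-1.80 to -1.21) do not.

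Gdnf, the ligand (mm9 chromosome 15, 7761011 to 7787575), measured 16.7 and 13.6 FPKM in control replicates 1 and 2, against 18.9 and 16.1 in mutant replicates 1 and 2. The groups overlapped, control replicate 1 lying above mutant replicate 2. The means were 15.2 ± 2.21 and 17.5 ± 1.96 FPKM (SD, n = 2 in this and all later group means). The log2 difference was 0.20 (SE 0.15, 95% interval -0.21 to 0.61, adjusted p = 0.77). The mutant library was higher than the control library of the same number in both replicates, at 1.13 and 1.18 times its level. The assembled Gdnf locus began further upstream in mutant replicate 1 (7759992) than elsewhere (7761011), so the gene model behind that library's value, the highest of the 4, was not the same. Whether this moved the value was not tested.

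RefSeq gives 2 start sites for Gdnf. The 250 bases before each are shown because Gdnf is made in the cap mesenchyme, where the Cre acts, together with the window of a start of Etv5, the member of the set whose window held an ETS motif. They come from the GRCm38.p6 build and are not on the mm9 coordinates of the expression tables. Capitals mark matches, on either strand, to AAAGTCCA (an element typical of HNF4 sites), AGGTCA (the hexamer bound by many nuclear receptors) or GGAAGT (the core bound by ETS factors such as Etv4 and Etv5), motifs whose matches did not overlap here.
Gdnf first start, chr15:7809798-7810047, plus strand: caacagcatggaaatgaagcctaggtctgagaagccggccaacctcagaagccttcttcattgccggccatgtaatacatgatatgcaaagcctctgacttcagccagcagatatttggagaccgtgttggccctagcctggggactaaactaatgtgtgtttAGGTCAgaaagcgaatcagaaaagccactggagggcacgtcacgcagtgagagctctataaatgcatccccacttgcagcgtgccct
Gdnf second start, chr15:7813477-7813726, plus strand: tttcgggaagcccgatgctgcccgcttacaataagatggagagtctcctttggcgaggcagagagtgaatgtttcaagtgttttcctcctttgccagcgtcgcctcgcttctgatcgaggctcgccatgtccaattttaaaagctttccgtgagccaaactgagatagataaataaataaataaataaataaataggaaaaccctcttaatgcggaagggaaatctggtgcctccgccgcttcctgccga
Etv5 second start, chr16:22438369-22438618, minus strand: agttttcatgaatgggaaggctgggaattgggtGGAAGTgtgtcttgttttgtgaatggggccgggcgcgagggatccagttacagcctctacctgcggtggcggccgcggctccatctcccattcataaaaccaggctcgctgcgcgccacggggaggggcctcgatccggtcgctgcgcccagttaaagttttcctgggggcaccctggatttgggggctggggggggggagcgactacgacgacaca
The first Gdnf window held AGGTCA on its forward strand, beginning 87 bases before the start, and the second held none of the 3 motifs. The Etv5 window held GGAAGT on its forward strand, 217 bases before the start. Among 32851 windows of the same length, 1.01% held AAAGTCCA, 14% held AGGTCA and 19.7% held GGAAGT. Of the 9 genes, 6 had a window in the RefSeq table, 9 windows in all, and AAAGTCCA was in none of these. These are matches of letters only and say nothing of binding.

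Gfra1, the membrane-anchored co-receptor that binds Gdnf (chromosome 19, 58309921 to 58530410 in control replicate 1), was the steadiest gene of the set. Controls had 40.0 and 40.5 FPKM and mutants 41.6 and 39.8. The 4 values lay within 4.49% of their mean from lowest to highest, and the log2 difference was 0.02 (SE 0.07, 95% interval -0.18 to 0.21, adjusted p = 0.96). The locus of Gm10007 lies inside Gfra1 and was listed at 0 in every library.

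Ret, the signalling receptor (chromosome 6, 118101766 to 118147762), was the least steady between the control libraries. Its level was 19.03 and 13.7 FPKM in control and 15.5 and 16.2 in mutant libraries. Both mutant libraries lay between the controls, and the control libraries differed 1.39-fold, more than the group means did (16.4 ± 3.79 against 15.9 ± 0.536 FPKM). The log2 difference was -0.02 (SE 0.18, 95% interval -0.51 to 0.46, adjusted p = 0.98), the widest interval of the 9. It was 0.20 without control replicate 1 and -0.25 without control replicate 2, short of the threshold in both. The deposited interval of control replicate 1 (17.6 to 20.4 FPKM) lay above those of control replicate 2 (12.5 to 14.9) and mutant replicate 1 (14.2 to 16.8) and, by a narrow gap, above that of mutant replicate 2. In the replicate 1 libraries the mutant interval was below the control interval and in the replicate 2 libraries it was above, by a narrow gap. Of the genes compared this way, 1.41% showed such a reversal with the intervals apart in both pairs.

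Fgfr2, the receptor for Fgf7 and Fgf10 that also supports bud growth (chromosome 7, 137305965 to 137410322), gave 55.7 and 55.4 FPKM in controls and 50.5 and 55.2 in mutants. The groups did not overlap, by the narrow gap between control replicate 2 and mutant replicate 2. The log2 difference was -0.07 (SE 0.08, 95% interval -0.28 to 0.14, adjusted p = 0.82), and mutant replicate 1 made nearly all of it.

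Etv4 and Etv5, ETS transcription factors induced by Ret and by Fgf receptors, showed differences of opposite sign. Etv4 (chromosome 11, 101631056 to 101646632 in control replicate 1) gave 36.2 and 29.2 FPKM in controls and 37.6 and 36.5 in mutants. The groups did not overlap, but control replicate 1 was within 1.04-fold of both mutant libraries and control replicate 2 alone was low. The means were 32.7 ± 4.90 and 37.0 ± 0.798 FPKM, a log2 difference of 0.18 (SE 0.12, 95% interval -0.15 to 0.52, adjusted p = 0.76). Without control replicate 2 the difference was 0.03, and without control replicate 1 it was 0.33 (adjusted p = 0.45). In control replicate 2 the assembly also held an unnamed locus of 322 bases within Etv4 (101645979 to 101646300), at 13.8 FPKM, which the other libraries did not have, and its part in the low value was not tested. The deposited interval of Etv4 was wide in mutant replicate 1 (33.0 to 56.4 FPKM) and overlapped that of control replicate 1 (29.5 to 42.9).

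Etv5 (chromosome 16, 22381386 to 22439643) stood at 26.3 and 21.9 FPKM in control and at 23.7 and 23.3 in mutant libraries, both mutant values between the controls. The log2 difference was -0.03 (SE 0.12, 95% interval -0.35 to 0.28, adjusted p = 0.95). As in Ret and Etv4, the control libraries lay further apart than the mutant libraries.

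Wnt11, a secreted factor made by the bud tip (chromosome 7, 105983508 to 106003258 in control replicate 1), gave 34.6 and 33.5 FPKM in controls and 30.9 and 34.7 in mutants. Mutant replicate 1 was the lowest and mutant replicate 2 the highest of the 4, so the controls lay between the mutants. The log2 difference was -0.06 (SE 0.09, 95% interval -0.30 to 0.19, adjusted p = 0.88).

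Spry1, the intracellular inhibitor of receptor tyrosine kinase signalling (chromosome 3, 37538839 to 37543521 in control replicate 1), stood at 67.3 and 61.1 FPKM in control and at 66.1 and 62.1 in mutant libraries. Its means were 64.2 ± 4.35 and 64.1 ± 2.83 FPKM, the mutant mean being 99.9% of control (95% interval of the log2 difference -0.23 to 0.23, adjusted p = 0.999). In mutant replicate 2 an unnamed locus of 191 bases at 68.1 FPKM lay within Spry1 and was not listed in the other libraries.

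Sox9, a transcription factor of the bud tip and of other progenitors (chromosome 11, 112643524 to 112649071), had the largest difference of the 9. Controls had 12.2 and 9.86 FPKM and mutants 8.92 and 7.49. Both mutant libraries lay below both controls. The mean was 11.04 ± 1.67 FPKM in control and 8.21 ± 1.01 in mutant libraries, 74.4% of control, and the log2 difference was -0.38 (SE 0.17, 95% interval -0.84 to 0.07). It did not pass the test, with an unadjusted p of 0.079 and an adjusted p of 0.75 by limma (0.29 to 0.999 over the 13 alternatives). The mutant library was at 0.730 of the control library in replicate 1 and at 0.760 in replicate 2. The deposited intervals were apart in replicate 1 (10.9 to 13.5 against 7.62 to 10.2 FPKM) and overlapped narrowly in replicate 2 (8.46 to 11.1 against 6.48 to 8.51). Col2a1, a cartilage collagen and a known Sox9 target, stood at 18.46 and 11.9 FPKM in control and at 12.3 and 13.3 in mutant libraries. Of the other cartilage genes listed, Col9a1 stood at 6.24 and 5.91 FPKM in control and at 6.51 and 6.54 in mutant libraries, and Acan and Matn1 were under 1 FPKM in every library. The 4 cartilage genes summed to 25.5 and 18.3 FPKM in control and to 19.1 and 20.5 in mutant libraries, and their part in the level of Sox9 was not tested. Its relatives were low, with Sox8 at 1.75 and 0.861 against 0.878 and 1.35 FPKM and Sox10 between 0.235 and 0.595.

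Sox9, Etv4 and Fgfr2 were the 3 of 9 genes whose groups did not overlap (33.3%), near the 39.8% of all tested genes for which this held. By direction, Etv4 was higher (22.7% of all tested genes were higher without overlap) and Sox9 and Fgfr2 were lower (17.1%).

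By level per length, the order over the 4 libraries was Spry1 (mean 64.1 FPKM), Fgfr2 (54.2), Gfra1 (40.5), Etv4 (34.9), Wnt11 (33.4), Etv5 (23.8), Gdnf (16.4), Ret (16.1) and Sox9 (9.62). Neighbours in this order were separated in every library except for Etv4 and Wnt11 and for Gdnf and Ret, whose ranges overlapped. The co-receptor Gfra1 was thus above Ret in each library, at 2.1 and 2.96 times its level in control and 2.69 and 2.45 times in mutant libraries.

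Control replicate 1 was above control replicate 2 in 8 of the 9 genes, all but Gfra1, against 44.6% of all tested genes. Mutant replicate 1 was above mutant replicate 2 in 6 of the 9, against 47.1%. The order of the controls was the same for Six2, the cap mesenchyme factor (67.0 and 49.9 FPKM, with 58.4 and 55.9 in the mutant libraries), and for 8 of the 9 nephron progenitor genes. The summed FPKM of that list was 256 and 207 in control and 242 and 235 in mutant libraries. Some other lists mostly had the same order of the controls. It held in 9 of 11 ureteric trunk and collecting duct genes (summed FPKM 669 and 642), 6 of 7 stromal genes (442 and 383) and 4 of 5 urothelial genes (97.0 and 78.6). It held less often in others, in 3 of 9 regulators of Ret in the bud and 10 of 26 adaptor and kinase genes downstream of Ret. In the neural crest list it held in 0 of 3 tested genes, and in the proximal tubule list in 4 of 7. The part of any cell type in the differences between the controls was not tested.

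**Figure D3:**
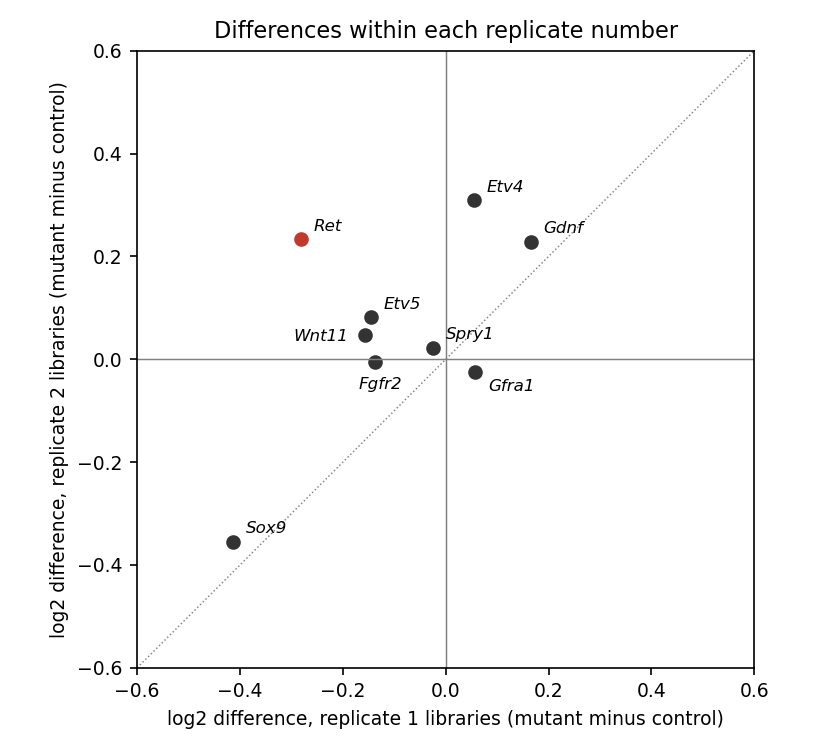
Log2 difference in FPKM + 1 between mutant and control within the replicate 1 libraries (horizontal) and within the replicate 2 libraries (vertical), 1 point per gene; on the dotted line both are equal. Sox9 is negative and Gdnf and Etv4 are positive in both, while Ret (red) is at -0.28 in replicate 1 and at 0.23 in replicate 2.

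Within replicate numbers the 9 genes did not move as a block. Sox9 and Fgfr2 were lower and Gdnf and Etv4 higher in the mutant library of both numbers. Ret, Etv5, Wnt11 and Spry1 were lower in replicate 1 and higher in replicate 2, and Gfra1 the reverse. Each of these differences compares 1 library with 1 other and carries no test.

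Ratios within a library do not depend on its scaling. With 2 libraries against 2, the exact permutation test (two-sided) cannot give a p below 0.333, so none of the 8 ratios examined could pass. Etv4 over Ret was 1.90 and 2.14 in control and 2.43 and 2.25 in mutant libraries, without overlap (exact p = 0.333, 0.889 after Benjamini-Hochberg adjustment). Gdnf over Six2 was 0.250 and 0.273 in control and 0.324 and 0.289 in mutant libraries, also without overlap and with the same p-values. Wnt11 over Hoxb7, a transcription factor of the whole ureteric tree, was 0.621 and 0.657 in control and 0.538 and 0.391 in mutant libraries, again without overlap. Hoxb7 itself stood at 55.8, 51.0, 57.4 and 88.7 FPKM in the same order of libraries, so the low last ratio goes with a high Hoxb7 in mutant replicate 2. Gfra1, Etv5, Wnt11 and Spry1 over Ret overlapped between groups, as did Ret over Hoxb7.

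The wider pathway was read from 10 lists of textbook genes that share some members. Beside the 9 genes they hold 105 others, of which 94 were tested with limma. None was called higher and none lower, and 3 (Pspn, Foxc2 and Fgfr3) had an unadjusted p under 0.05 (3.19%, against 7.24% of all tested genes). Their median difference was -0.04, against 0.02 over all tested genes. Of the 94, 61 were negative and 33 positive (35.1% positive, against 55.3% of all tested genes).

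Among the other ligands and receptors of the Gdnf family, 0 of 7 tested genes, the 3 members included, passed. Neurturin (Nrtn), a ligand that prefers Gfra2, stood at 19.5 and 15.4 FPKM in control and at 21.1 and 16.6 in mutant libraries, about the level of Gdnf. Gfra2 (4.81 and 2.71 against 3.14 and 4.11 FPKM) and artemin (Artn, 2.5 and 2.16 against 1.59 and 2.07) were low, and Gfra3, between 0.461 and 0.897 FPKM, was too low to test. Gfra4 was also untested, since it stood under a joint name with Mir6973b in every library and was not read. Persephin (Pspn), named after its values were seen, was at 2.04 and 5.02 FPKM in control and listed at 0 in both mutant libraries (adjusted p = 0.23). An exact 0 in such tables can be a failed estimate.

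Regulators of the Gdnf domain were read from 2 lists. Of 15 tested genes that promote Gdnf in the mesenchyme 0 passed (median -0.08), with the integrin ligand nephronectin (Npnt) at 119 and 117 against 107 and 102 FPKM and the zinc finger factor Wt1 at 58.6 and 69.2 against 64.8 and 55.2. Of 10 tested genes that limit the domain 0 passed (median -0.09). Foxc2, a forkhead factor, had the lowest unadjusted p of these and stood at 53.8 and 52.4 FPKM in control and at 46.5 and 42.6 in mutant libraries (log2 difference -0.25, adjusted p = 0.61). Its relative Foxc1 was at 33.7 and 25.6 against 30.4 and 27.4 FPKM, and Bmp4 was at 27.1 and 30.5 against 28.3 and 30.8. Regulators of Ret in the bud had 0 of 9 past the threshold (median -0.04), with Ctnnb1 (beta-catenin) at 152 and 154 against 156 and 145 FPKM, the retinoic acid enzyme Aldh1a2 at 106 and 115 against 116 and 113, and Pax8 at 59.2 and 62.1 against 59.3 and 62.4.

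Downstream of Ret, 0 of 26 tested adaptor and kinase genes passed (median 0.00), with Akt1 at 104 and 111 against 108 and 101 FPKM and Grb10 at 94.6 and 93.7 against 98.2 and 89.8. Map2k2 varied more by replicate number than by group, at 81.7 and 59.3 FPKM in control and 86.5 and 55.7 in mutant libraries. Of 12 genes known to depend on Ret in the tip 0 passed, 4 members included (median -0.02). The protease gene Mmp14 was at 83.2 and 83.0 against 83.0 and 72.6 FPKM and the ERK phosphatase gene Dusp6, a readout of the pathway, at 46.3 and 56.2 against 46.4 and 50.6. Spry2 was at 33.6 and 35.5 against 37.1 and 37.0 FPKM. Feedback inhibitors had 0 of 10 past the threshold (median -0.09), with Spred2 at 33.5 and 26.5 against 26.3 and 23.9 FPKM.

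Fgf ligands and receptors had 0 of 11 tested genes past the threshold, Fgfr2 included (median -0.07). Fgfr1 was at 57.8 and 56.4 against 58.6 and 56.3 FPKM, the decoy-like Fgfrl1 at 27.4 and 28.7 against 26.2 and 29.9, and Fgfr4 at 22.8 and 20.1 against 17.2 and 19.6. Fgfr3, named after its values were seen, was at 20.1 and 16.8 FPKM in control and at 14.0 and 14.1 in mutant libraries (log2 difference -0.36, adjusted p = 0.66). Among Wnt genes 0 of 6 passed, with Wnt4, which drives nephron formation, at 45.2 and 45.0 against 41.8 and 44.5 FPKM, Wnt7b of the ureteric trunk at 29.1 and 27.9 against 29.7 and 30.1, and Wnt5a at 21.8 and 21.9 against 20.7 and 22.0. In the list of Pea3 and SoxE factors 0 of 5 passed, and Etv1, the third Pea3 gene, was low at 2.59 to 3.14 FPKM.

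**Figure D4:**
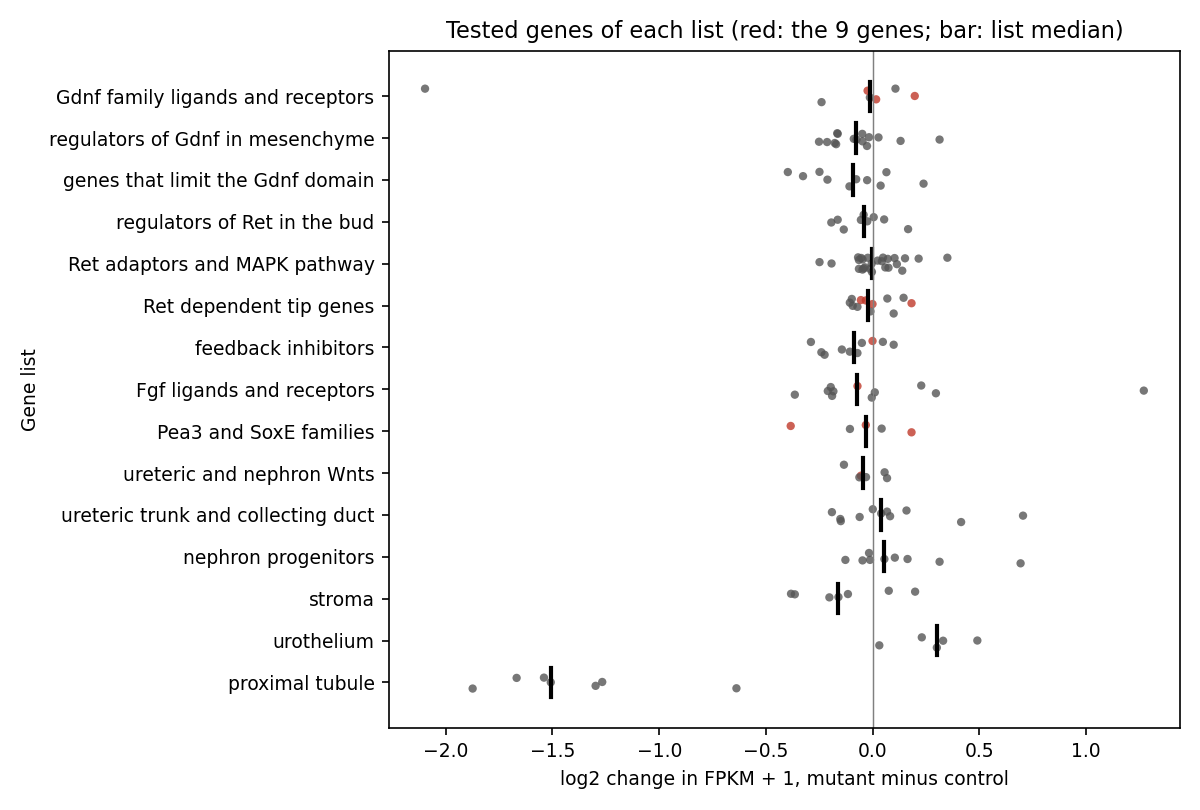
Log2 change in FPKM + 1 of every tested gene in 15 of the 18 lists (adrenal, cartilage and neural crest, with few tested genes, are not drawn), mutant minus control, with the list median as a bar and the 9 genes in red. The pathway lists centre between -0.09 and 0.00, whereas the proximal tubule list centres at -1.51; the point at the far left of the first list is Pspn, listed at 0 in both mutant libraries, and the point at the far right is Fgf2, listed at 0 in control replicate 2.

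Lists of genes of the ureteric trunk, the nephron progenitors and the stroma held no called gene either. Of 11 tested genes of the ureteric trunk and collecting duct 0 passed (median 0.04), with the water channel Aqp2 at 187 and 158 against 165 and 146 FPKM, Krt8 at 102 and 111 against 94.6 and 96.9, and Krt18 at 77.4 and 75.4 against 79.4 and 91.8. Of 9 nephron progenitor genes 0 passed (median 0.05), with Crym at 59.0 and 52.7 against 59.4 and 60.6 FPKM and Uncx at 55.3 and 50.1 against 51.1 and 53.2. In that list 1 gene had an unadjusted p under 0.05, Meox2, named for it, at 0.950 and 0.998 against 2.48 and 1.92 FPKM (adjusted p = 0.47). Of 7 stromal genes 0 passed (median -0.16), with Col3a1 at 138 and 123 against 125 and 109 FPKM, Col1a1 at 137 and 98.1 against 101 and 80.1, and Dcn at 60.0 and 58.9 against 75.2 and 62.1. The trunk and stroma lists also had 0 genes at an unadjusted p under 0.05. In contrast, all 7 proximal tubule genes were lower in both mutant libraries than in either control, against 17.1% of all tested genes. Of these 7, 2 (Vil1 and Mep1b) passed, against 0.113% of all tested genes called lower. This list, like the others, was chosen with earlier results of these data known. The call of Mep1b was lost in the same alternatives as that of Vil1. The summed FPKM of the 7 proximal tubule genes was 346 and 307 in control and 136 and 134 in mutant libraries.

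Ret, Gfra1 and Sox9 are also expressed in peripheral neurons, glia or cartilage, which dissection could bring along. Of 10 markers of ganglia and neural crest, 6 were under 1 FPKM in every library and Phox2a was listed at 0 in all, and their summed FPKM was 4.54 and 5.14 in control and 7.28 and 5.69 in mutant libraries. The 5 adrenal markers that could be read summed to between 0.398 and 1.33 FPKM, with Cyp21a1 and Cyp11b1 listed at 0 throughout. Urothelial markers were present, and 0 of 5 tested passed, at either p. All 5 differences were positive (median 0.30), against 55.3% of all tested genes. Upk3a stood at 33.1 and 33.1 against 47.9 and 36.5 FPKM. The summed FPKM of the urothelial markers was 97.0 and 78.6 in control and 141 and 86.9 in mutant libraries. Mutant replicate 1, the library highest in these markers, was also the highest in Gdnf, Gfra1 and Etv4 and the lowest in Wnt11 and Fgfr2. The part of urothelial cells in those values was not tested.

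Other genes with nearly the same profile were sought by the root mean square difference of centred log2 values over the 4 libraries. Nearest to Gdnf were Aldh3a2 (0.0099), a fatty aldehyde dehydrogenase gene, and Adam22 (0.015). Nearest to Ret were Gm15800 (0.0074) and Nynrin (0.014), and nearest to Wnt11 were Cited4 (0.0072) and the pseudogene Zfa-ps (0.0087). With 4 libraries such matches are common, 39 genes lying within 0.05 of Gdnf, 81 of Ret and 431 of Wnt11. The root mean square spread of Wnt11 itself was 0.065, little above that limit of 0.05, against 0.159 for Gdnf and 0.161 for Ret. Zfa-ps was low, at 1.12 to 1.37 FPKM.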

How the data were processed

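Kidney mRNA was enriched on poly(A) beads and made into libraries with a DNA-seq kit, per the labels' protocols, and no strand-specific step is described. The authors computed FPKM values with intervals and deposited 1 table per library. The submitters' processing notes name Cufflinks 2.1.1, TopHat2 2.0.11, SAMtools 0.1.19, Bowtie 1.0.0 and the mm9 build. The annotation used is not stated there. Locus names and ends differ between the tables.

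Rows were joined by symbol over the 4 tables (22761 shared names), 99 names with a row not marked OK were left out, and FPKM was summed over rows of a name. A gene was tested if 2 or more libraries reached an FPKM of 1, on log2(FPKM + 1), with limma 3.58.1 in R 4.3.3 (eBayes with trend, group as the single term, Benjamini-Hochberg adjustment over all tested genes, threshold 0.05). Coordinates are 1-based. Of the list genes, 7 stood under a joint name in at least 1 table and were not read. Fragment totals are unknown. Low values fell on steps that put mutant replicate 2 about 0.2 log2 units deeper than the others.

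In simulated data (13156 genes), normal noise was drawn around the real means, with the spreads that limma had smoothed over genes. The fit recovered 84 of 100 genes changed by 1 log2 unit and 97 of 100 changed by 2, with 18 unchanged genes called. The changed genes were drawn from genes of middle level, and the shares hold for such noise only. In the real data Cubn (log2 change -1.54, adjusted p = 0.096 by limma) and Slc34a1 (-1.30, 0.098) were not called, while Vil1 and Mep1b were.

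The 9 genes and all lists were chosen with earlier results of these data known. Named beside the 9 were Hnf4a, Lrp2 and Vil1, from each list the genes called or else the 3 highest by mean FPKM, untested Gdnf family genes, genes overlapping a member's locus and the 2 nearest profiles of Gdnf, Ret and Wnt11. The 13 alternatives changed pseudocount, filter, scaling, variance model, rows per symbol, the replicate block and each library left out. Promoter sequences are RefSeq's, from GRCm38.p6.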

Additional observations from a re-analysis of the deposited data

Results flagged for a closer look

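Ret differed from its control in opposite directions in the 2 replicate numbers, which also separate the Y-linked and Xist patterns. The log2 difference in FPKM + 1, mutant minus control, was -0.28 in the replicate 1 libraries and 0.23 in the replicate 2 libraries. In both pairs the deposited intervals were apart, at 17.6 to 20.4 against 14.2 to 16.8 FPKM in replicate 1 and at 12.5 to 14.9 against 15.0 to 17.6 in replicate 2. The gap in replicate 2 was narrow, from 14.87 to 14.96 FPKM. The control libraries differed 1.39-fold, and both mutant libraries lay between them. The difference between the pairs was not tested, since each holds 1 library per group. Among 13251 tested genes with 1 row in each table, 187 (1.41%) met the same description, and Ret was the only one of the 9 genes that did.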

How the results depend on the processing

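No member was called under any of the 13 alternatives, and an unadjusted p under 0.05 appeared only for Etv4 without control replicate 1. Of 117 recomputed member differences, 108 kept their sign. Over single libraries left out, the range was -0.015 to 0.048 for Gfra1, -0.25 to 0.20 for Ret, -0.16 to 0.093 for Etv5, -0.14 to 0.025 for Wnt11 and -0.069 to 0.067 for Spry1, all of which crossed 0, and 0.06 to 0.34 for Gdnf, 0.03 to 0.33 for Etv4, -0.13 to -0.01 for Fgfr2 and -0.53 to -0.24 for Sox9. Gfra1 was at -0.0051 when scaled by median ratio and Spry1 at 0.0019 when scaled to the upper quartile. Of the ratios to Ret, 4 had mutant minus control differences that crossed 0 over libraries left out, from -0.40 to 0.47 for Gfra1, -0.12 to 0.10 for Etv5, -0.39 to 0.25 for Wnt11 and -0.42 to 0.51 for Spry1. The other ratios did not, at 0.20 to 0.44 for Etv4 over Ret, -0.12 to -0.04 for Ret over Hoxb7, -0.25 to -0.10 for Wnt11 over Hoxb7 and 0.03 to 0.06 for Gdnf over Six2.

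The count over all genes (21) was 10 with no filter, 33 with an FPKM of at least 5, 11 without the variance trend, and 0 to 14 with a library left out (0 without control replicate 1 and 0 without control replicate 2 by limma, with 1029 and 2293 genes at an unadjusted p under 0.05). With the replicate block it was 6. The replicate numbers share no stated source, and same-numbered deviations correlated at 0.15 over 13287 genes. The 2 list genes called, Vil1 and Mep1b, fell to 0 with no filter, without the trend, with the replicate block, and with any library left out (0 to 0). The cause was not tested. Fragment totals are unknown, and the precision of low genes rests on 2 libraries per group.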
